A study of Triticum turgidum subsp. durum with 36 samples.

Results

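The comparison described here set the flag leaf transcriptome of *gpc-A1/gpc-B2*, the double mutant, at 22 days after anthesis (22 DAA) against that at heading (HD). It used 8 of the 36 libraries of the series, with 4 replicates at each time, and covered the 70589 loci, of 80168 with counts, in which at least 2 replicates of either group exceeded 3 reads. Each library came from a single flag leaf of a separate greenhouse-grown plant of the tetraploid wheat cultivar Kronos, so replicates are sibling plants. The double mutant carries induced stop codons in *GPC-A1* and *GPC-B2*, the single mutant *gpc-A1* carries only the first of these, and WT siblings carry neither. All 3 genotypes lack a functional *GPC-B1* and have an intact *GPC-A2*, so some *GPC* function remains in the double mutant. As both lesions are stop codons, the count of a mutated locus does not check the genotype of a library. The third sampling time, 12 DAA, is given beside the comparison, and WT and *gpc-A1* leaves sampled at the same times are given only where the double mutant is set against them.

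The *GPC* genes encode NAC transcription factors known in wheat for the timing of senescence and for grain protein, Zn and Fe content. In a senescing cereal leaf, chloroplasts are dismantled, vacuolar proteases break down their proteins, cytosolic glutamine synthetase packs the released nitrogen into glutamine for export, and chelators such as nicotianamine and deoxymugineic acid carry Fe and Zn in the phloem. Metals cross membranes through families of transporters, among them ZIP, YSL and NRAMP proteins and the HMA pumps.

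The total count per library was 19344501 to 23802265 at 22 DAA and 18248833 to 23482849 at HD. Normalized counts below are counts divided by a size factor per library. Replicate 1 at 22 DAA and replicate 3 at HD deviated most from their groups, with a root mean square log2 deviation of 0.509 and 0.556, against 0.377 to 0.443 in the other 6 libraries. Among the libraries used for comparison, replicate 4 of WT at HD stood apart, with a sum of 541277 normalized counts over light-harvesting loci where the other WT libraries at HD had 1304435 to 1457880. Replicates 2 and 3 of *gpc-A1* at 22 DAA had the largest deviations of the series, 0.721 and 0.667, and replicate 4 of WT at HD had 0.542. As markers of the sampled tissue, 25 mesophyll loci (Rubisco small chains and activases, chlorophyll a-b binding proteins) summed to 344938 to 480912 normalized counts at 22 DAA and 1088839 to 1411940 at HD. None was at 0, but markers were picked among descriptions of abundant loci, so this does not test the tissue. In whole leaves, fewer cells of a type and less RNA per cell cannot be told apart.

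A locus was called DE, by a 4-test rule adapted from the methods of the study, when edgeR's quasi-likelihood test and DESeq2 both gave an adjusted P of 0.01 or less and a rank test and a mean comparison of normalized counts passed too. By this rule 4577 loci (6.48% of those tested) were DE between 22 DAA and HD, of which 2151 (3.05%) were higher and 2426 (3.44%) were lower at 22 DAA. The 22 DAA and HD libraries did not overlap at any of the 4577, which the rank test of the rule nearly requires. They did not overlap at 23.3% of all loci tested. The loci that rose did so by a median of 3.03-fold and the loci that fell by a median of 2.33-fold, with medians on the log2 scale of 1.6 (quartiles 1.09 and 2.34) and -1.22 (quartiles -1.71 and -0.93). The median log2 fold change of all loci tested was 0.01. A log2 change of at least 3 was seen at 262 loci that rose and at 145 that fell. The number of calls fell by more than 1.5 times when a single library was left out, to 2672 and 2291 without replicates 2 and 4 at 22 DAA, and to 2213, 2311 and 2534 without replicates 1, 2 and 4 at HD.

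The share of loci that were DE was larger among abundant loci than among scarce ones. Of loci with a mean under 10 normalized counts over the series, 1.36% were DE, against 9.07% of those between 100 and 1000 and 40% of the 400 loci at 5000 or more, most of which were lower at 22 DAA. The A genome loci were DE in 6.35% of cases and the B genome loci in 6.61%, and the 27 chromosome arms or chromosomes ranged between 5.14% and 7.59%. Descriptions were available for 666 of the most abundant loci of the series, of which 32% were DE, 24 higher and 189 lower, so the named groups below stand for the abundant part of the transcriptome. The other 95.3% of the DE loci carry no description.

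At most DE loci the mean of the 12 DAA libraries of the double mutant lay between the means of the other times. These loci were called for a difference between HD and 22 DAA, which favours such an order, and the share over all loci was not counted. The 12 DAA mean was between the 22 DAA and HD means at 1991 of the 2151 loci that rose (92.6%) and at 2270 of the 2426 that fell (93.6%). By 12 DAA a median of 71.9% of the log2 change was present at loci that rose, and 75.6% at loci that fell.

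Both NAC loci followed by name rose. *GPC-A2* (2AS, contig5260301, positions 2618 to 5026 of the IWGSC contig), the only intact *GPC2* homoeolog in these leaves, had 661.5, 666.9, 658.3 and 622.3 normalized counts at 22 DAA and 16.6, 26.6, 28.8 and 45.2 at HD. The lowest leaf at 22 DAA was thus far above the highest at HD. Its mean of 652 ± 20.3 at 22 DAA was 22.3 times the 29.3 ± 11.9 at HD (SD, n = 4 each, exact permutation test, two-sided, p = 0.0286, the smallest possible), and edgeR gave a log2 fold change of 4.46 ± 0.24 (SE, adjusted P = 4.78e-06). The 12 DAA leaves had 517.7, 647.6, 382.6 and 418.5, so most of the rise was present at that time. In WT the log2 fold change of *GPC-A2* reached 4.25 and in *gpc-A1* 4.04. The difference between the double mutant and WT in this change was 0.19 ± 0.30 (SE, edgeR interaction, adjusted P = 0.985). This test compares changes from HD, and levels at 22 DAA were not tested between genotypes. The WT leaves had 494.3, 369.3, 451.1 and 473.9 normalized counts at 22 DAA, all below the lowest double mutant leaf. At HD the WT mean of 23.4 ± 3.4 (SD, n = 4) lay within the double mutant range. The paper reports lower expression of this gene in WT than in either mutant at the last sampling time, and proposes a possible feedback.

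The 6AS locus described as NAM-B1 (contig4397602, 15266 to 17686) carries the name of the B genome *GPC1* factor but lies on an A genome arm. The paper places *GPC1* on the short arms of this chromosome group, so the locus would be *GPC-A1*, with a stop codon in both mutants. That identity was not tested. The locus had 3285.7, 6485.6, 6619.6 and 5546.4 normalized counts at 22 DAA and 535.3, 663.1, 884.0 and 833.2 at HD. Replicate 1 was the lowest leaf at 22 DAA and still exceeded every HD leaf. The mean of 5484 ± 1542 was 7.52 times the 729 ± 160 at HD (SD, n = 4 each, exact permutation test, two-sided, p = 0.0286, the smallest possible), with a log2 fold change of 2.91 ± 0.26 (SE, edgeR, adjusted P = 8.57e-05) against 2.90 in WT and 2.12 in *gpc-A1*. A stop codon leaves the transcript countable, and reads were kept only where they mapped to 1 place, so near-identical homoeologs can lose reads.

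**Figure D1:**
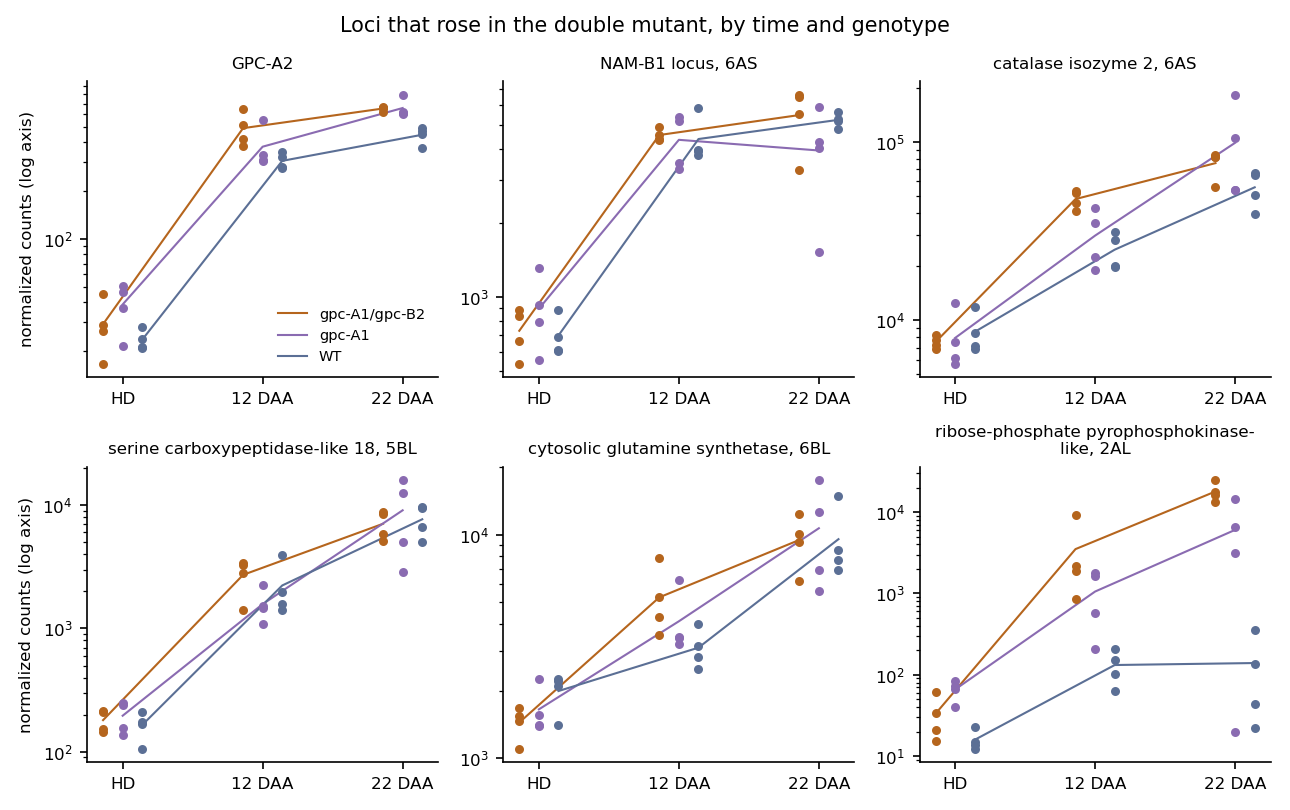
Normalized counts (y axis, log scale, each panel with its own range) at HD, 12 DAA and 22 DAA for 6 loci that rose in the double mutant; points are single libraries (n = 4 per group) and lines join group means of *gpc-A1/gpc-B2*, *gpc-A1* and WT. In the double mutant every 22 DAA library lies above every HD library in all 6 panels, and in the panel of the ribose-phosphate pyrophosphokinase-like locus WT averaged 139 at 22 DAA.

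Most loci of the photosynthetic apparatus fell. All 21 light-harvesting loci, whose proteins hold chlorophyll in the antennae, were lower at 22 DAA, with a median log2 fold change of -1.74, and none was higher by edgeR at an unadjusted P under 0.05 or by DESeq2 alone. Their summed normalized counts were 195486, 326599, 323517 and 191432 at 22 DAA and 880297, 1040763, 963181 and 860007 at HD, so that the groups were far apart and the 22 DAA mean was 0.277 of the HD mean. In WT the same sums ranged from 91947 to 375847 at 22 DAA and from 541277 to 1457880 at HD, with a median log2 fold change of -2.25. The most abundant member, a chlorophyll a-b binding protein on 5BL (contig10804278), had 62837, 124622, 125286 and 75636 normalized counts at 22 DAA and 279782, 333675, 346074 and 305578 at HD (log2 fold change -1.71 ± 0.28, SE, edgeR, adjusted P = 0.00236). Replicates 1 and 4 at 22 DAA were the lower pair at this locus. The call was lost without replicate 4 at 22 DAA, where the adjusted P was 0.0103. The member that fell furthest, also on 5BL (contig10831572), had 369.7, 1334.6, 1377.2 and 514.6 normalized counts at 22 DAA and 6218, 8001, 10159 and 5180 at HD (-3.04 ± 0.43, SE, edgeR, adjusted P = 0.00104).

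Of 42 subunits of the photosystems and the electron transport chain, 37 were lower and none higher (median -1.27). One member had an unadjusted P under 0.05 with a higher level at 22 DAA by edgeR, and DESeq2 alone called 38 lower and none higher. The summed counts were 324327, 476160, 454944 and 320779 at 22 DAA and 853938, 900415, 892963 and 798889 at HD, without overlap. The photosystem II 10 kDa protein on 6AL, a stabilizing subunit of the reaction centre complex, had 32542, 41186, 33538 and 28867 normalized counts at 22 DAA and 64555, 69911, 61234 and 61703 at HD, and fell by 0.92 ± 0.19 on the log2 scale (SE, edgeR, adjusted P = 0.00643). The thylakoid lumenal 29 kDa protein on 2AL fell furthest in this group (-2.33 ± 0.27, SE). Without replicate 4 at 22 DAA only 24 members were called, and the 10 kDa protein was not among them (adjusted P = 0.0246). It was also not called without replicate 3 at 22 DAA or without replicates 1, 2 and 4 at HD (adjusted P between 0.0173 and 0.0221), or with all 12 libraries of the double mutant in the fit (adjusted P = 0.0129).

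Among 37 loci of Rubisco and the Calvin cycle, which fix and reduce carbon dioxide, 28 fell and 1 rose (median -1.26). A Rubisco small chain on 2BS (contig5229108) had 645.4, 1557, 1763 and 793.0 normalized counts at 22 DAA and 7573, 9990, 6541 and 6562 at HD, a log2 fold change of -2.69 ± 0.33 (SE, edgeR, adjusted P = 0.000466). Each HD leaf was several times above every 22 DAA leaf. Rubisco activase, the chaperone that frees inhibited Rubisco sites, is represented by neighbouring loci on contig4910205 of 4BS that did not behave alike. The locus at 10201 to 12695, the most abundant of the group, had 109690, 85910, 84730 and 80004 normalized counts at 22 DAA and 210502, 197656, 108883 and 136403 at HD, and was not called (-0.87 ± 0.25, SE, edgeR, adjusted P = 0.0359). The locus at 5859 to 9427 had 10962, 6225, 7872 and 5563 normalized counts at 22 DAA and 1704, 2359, 1933 and 1252 at HD, and was the single member that rose (2.07 ± 0.25, SE, edgeR, adjusted P = 0.000453). Its log2 fold change in WT was 2.19. Its call was lost without replicate 3 at 22 DAA, replicate 1 at HD or replicate 4 at HD, with edgeR adjusted P values of 0.0012, 0.003 and 0.0022. The number of members that fell was 13 without replicate 4 at 22 DAA and 15 without replicate 1 at HD.

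**Figure D2:**
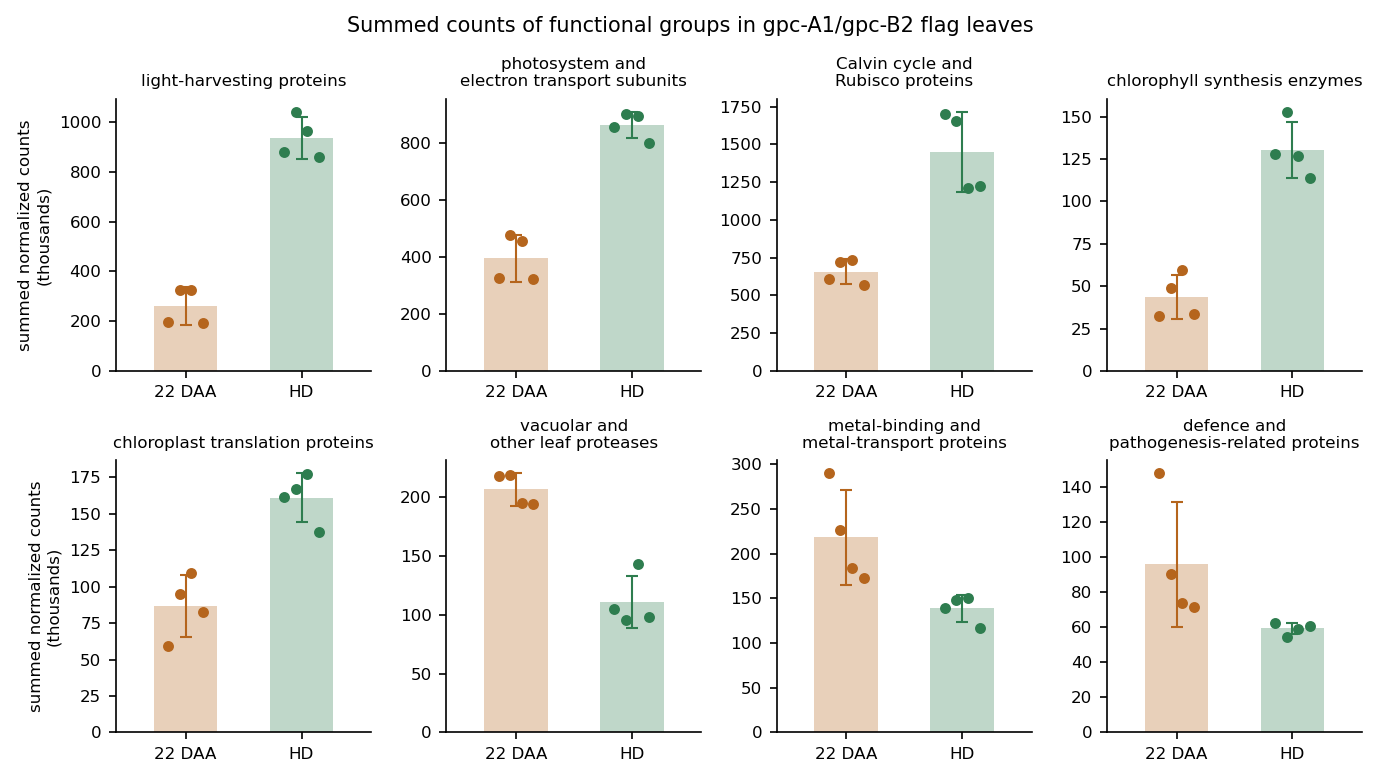
Summed normalized counts (y axis, in units of 1000) of 8 groups of loci in *gpc-A1/gpc-B2* flag leaves at 22 DAA (left bar) and HD (right bar); bars are means, error bars are SD and points are the 4 libraries. The 5 groups of the chloroplast are lower at 22 DAA and the 3 other groups are higher, without overlap between times, and replicate 1 at 22 DAA is the highest point for the metal and defence groups.

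Of 11 chlorophyll synthesis loci 10 were lower and none higher by edgeR at an unadjusted P under 0.05 or by DESeq2 alone (median -1.37), and the sums were 32621, 48942, 59596 and 33584 at 22 DAA and 128011, 152865, 126889 and 113747 at HD. Glutamyl-tRNA reductase on 1BS, which commits glutamate to the tetrapyrrole pathway, changed by -1.87 ± 0.32 (SE, edgeR, adjusted P = 0.00285) and the Mg-chelatase subunit Xantha-f on 2BS, which takes part in inserting Mg into the ring, by -1.44 ± 0.27 (SE, edgeR, adjusted P = 0.00397). The number of calls moved with single libraries: the group had 6 and 2 calls without replicates 1 and 4 at 22 DAA, and 4 and 5 without replicates 1 and 2 at HD. Glutamyl-tRNA reductase lost its call without replicate 4 at 22 DAA (adjusted P = 0.0127), and Xantha-f without any single library other than replicate 3 at HD (adjusted P between 0.0037 and 0.0165) and also with all 36 libraries in the fit (adjusted P = 0.0178). The 5 loci described as pheophorbide a oxygenase-like, enzymes of the type that opens the chlorophyll ring, went separate ways. One on 2BS (contig5188378) fell, with 7731, 13471, 11952 and 6511 normalized counts at 22 DAA and 27459, 28790, 30742 and 25104 at HD (-1.50 ± 0.25, SE, edgeR, adjusted P = 0.00222). The other 4 were not called and had log2 fold changes between -0.59 and 0.90. In WT 1 of the 5, the 2BS locus, was called lower and 3 were called higher, but the interaction with WT was called at none of the 5 by edgeR and had an unadjusted P under 0.05 at 1.

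Of 21 loci for chloroplast ribosomal proteins and translation factors, 15 fell and none rose by edgeR at an unadjusted P under 0.05 or by DESeq2 alone (median -1.0). The sums did not overlap, with 59580, 95304, 109488 and 82505 at 22 DAA and 161623, 166696, 177606 and 137669 at HD. A 50S ribosomal protein on 5BL changed by -1.39 ± 0.24 (SE, edgeR, adjusted P = 0.00278) and a chloroplast elongation factor on 6AL by -1.0 ± 0.2 (SE, edgeR, adjusted P = 0.00564). Without replicates 2 and 4 at 22 DAA 8 and 3 members were called, and without replicates 1 and 2 at HD 7 each, and both named loci lost their calls without replicate 4 at 22 DAA (adjusted P = 0.0122 and 0.0226). The elongation factor also lost its call without replicate 2 at 22 DAA or replicates 1 and 2 at HD (adjusted P between 0.0147 and 0.02). The 13 chloroplast proteases of the Clp and FtsH type, which turn over thylakoid and stromal proteins, had no call in either direction (median -0.28). By edgeR 6 of them were lower at an unadjusted P under 0.05, and DESeq2 alone called 5 lower. The FtsH locus on 7AL, the most abundant, had 33042, 28486, 29907 and 28985 normalized counts at 22 DAA and 48094, 48940, 42000 and 42495 at HD, without overlap (-0.60, edgeR, adjusted P = 0.0282), against a log2 fold change of 0.03 in WT. The interaction with WT had an adjusted P of 0.05 or less at none of the 13 proteases, and an unadjusted P under 0.05 at 2 (edgeR).

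Of 21 loci for proteases of the vacuole and secretory system 6 rose, 1 fell and 14 were not called (median 0.91, WT median 1.20), and the sums were 217718, 218924, 195352 and 193923 at 22 DAA and 104542, 95866, 143366 and 98343 at HD, 1.87 times higher on average. A serine carboxypeptidase-like 18 on 5BL (contig10923998, 6245 to 8555), of a family that trims peptides from the carboxyl end, had 8504, 8781, 5135 and 5787 normalized counts at 22 DAA and 145.7, 152.2, 212.4 and 212.2 at HD, the largest rise in the group (5.28 ± 0.26, SE, edgeR, adjusted P = 3.79e-06). The most abundant member, cysteine proteinase 1 on 2AL, a papain-type enzyme, had 21746, 36493, 32676 and 32327 normalized counts at 22 DAA and 11153, 9105, 6792 and 9108 at HD (1.77 ± 0.23, SE, edgeR, adjusted P = 0.000579). Its lowest 22 DAA leaf, replicate 1, was well above all HD leaves. The other loci that rose were vacuolar processing enzyme 4 on 3B (2.02), which matures vacuolar proteins, an aspartic proteinase-like locus on 1AL (1.5) and cysteine proteinase 1 loci on 5BL (1.72) and 5AL (1.68). The 1 member that fell, an M1 family aminopeptidase on 5AL (-0.66 ± 0.13, SE, edgeR, adjusted P = 0.0056), lost its call once replicate number entered the fit as a block (adjusted P = 0.011) or without any library other than replicate 1 at 22 DAA and replicate 3 at HD (adjusted P between 0.0139 and 0.0215). The number that rose was 3 without replicate 1 at HD and 3 without replicate 4 at HD.

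Nitrogen and photorespiration loci were mixed, and the share that fell in each group was under the 28.4% of all described loci. Of 16 loci of nitrogen assimilation and amino acid metabolism 3 rose and 1 fell (median -0.05), and the sums of the 22 DAA and HD libraries overlapped. Cytosolic glutamine synthetase on 6BL (contig227297) had 12306, 9229, 6223 and 10066 normalized counts at 22 DAA and 1672, 1459, 1100 and 1546 at HD (2.70 ± 0.23, SE, edgeR, adjusted P = 5.89e-05, WT log2 fold change 2.24). Its counterpart on 6AL rose as well (2.57), as did an isocitrate dehydrogenase on 3B (1.37), an enzyme that can supply the carbon skeleton for glutamate. Ketol-acid reductoisomerase on 1AL, of branched-chain amino acid synthesis, fell (-1.14 ± 0.20, SE, edgeR, adjusted P = 0.00318), a call lost without replicates 1 or 4 at 22 DAA or replicate 2 at HD (adjusted P = 0.005, 0.0129 and 0.0108). Of 26 photorespiration loci 6 fell and 1 rose (median -0.57), and only 1, 3 and 3 fell without replicate 4 at 22 DAA, replicate 1 at HD and replicate 2 at HD. Phosphoglycolate phosphatase on 2BL, the first enzyme of the pathway, changed by -1.24 ± 0.18 (SE, edgeR, adjusted P = 0.00115). The locus that rose was catalase isozyme 2 on 6AS (contig4376419), which removes hydrogen peroxide, with 84101, 82118, 82188 and 55572 normalized counts at 22 DAA and 6900, 8246, 7219 and 7738 at HD. Replicate 4 was the low leaf at 22 DAA, yet all 4 were several times above HD (3.33 ± 0.21, SE, edgeR, adjusted P = 1.52e-05, WT log2 fold change 2.69).

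**Figure D3:**
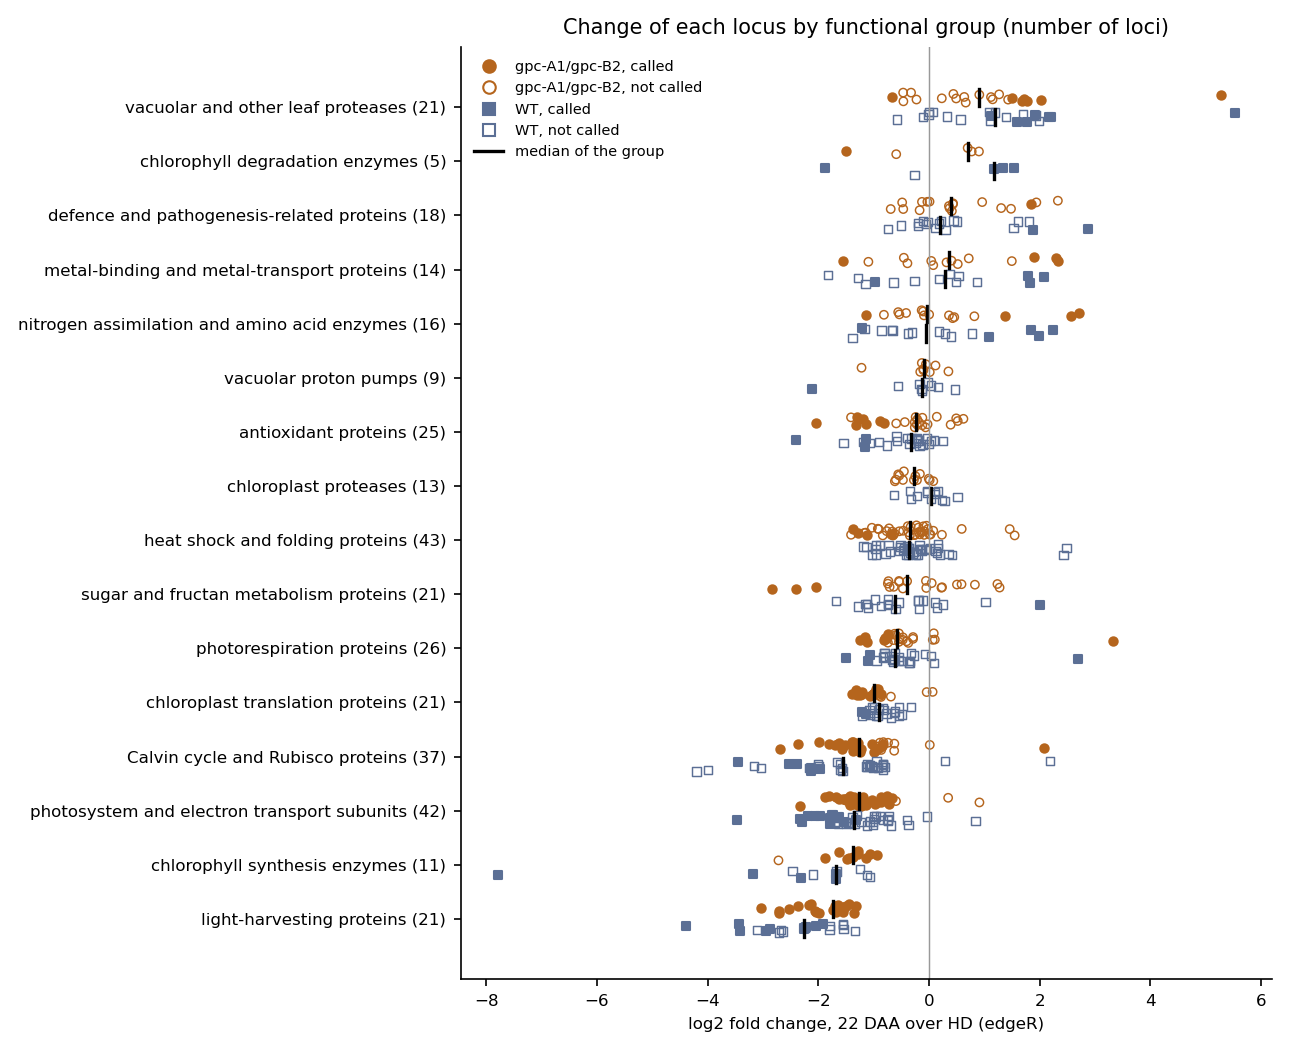
The log2 fold change between 22 DAA and HD (x axis, edgeR, positive where 22 DAA is higher) of each locus in 16 functional groups (rows, with the number of loci), in *gpc-A1/gpc-B2* (circles) and WT (squares); filled symbols are DE and black bars are group medians. Light-harvesting loci lie lowest, with medians of -1.74 in the double mutant and -2.25 in WT, and leaf proteases highest, with medians of 0.91 and 1.20.

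In the other groups fewer members were DE. Of all described loci 28.4% were lower at 22 DAA, and no group of this paragraph exceeded that share. Of 25 antioxidant loci 7 fell and none rose, while 4 were higher by edgeR at an unadjusted P under 0.05 and none by DESeq2 alone, and a chloroplast ascorbate peroxidase on 6BL, which reduces peroxide with ascorbate, fell furthest (-2.05 ± 0.28, SE, edgeR, adjusted P = 0.000847). Without replicate 4 at 22 DAA 4 of the 25 fell. Of 43 heat shock and folding loci 4 fell, led by a dnaJ-type co-chaperone on 3B (-1.38, edgeR, adjusted P = 0.000699). A single such locus was left when any of 6 libraries (replicates 2 and 4 at 22 DAA and each of the 4 at HD) was dropped. The 9 vacuolar proton pump loci had no call, with 1 in each direction at an unadjusted P under 0.05 by edgeR and 1 lower by DESeq2 alone.

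The 3 sugar and fructan loci that fell, of 21, were SWEET-type sugar exporters: a locus described as ruptured pollen grain 1 on 6AL, another on 6BL (-2.40) and SWEET13 on 6AL (-2.05). The 6AL ruptured pollen grain locus had 624.5, 1091.8, 926.4 and 841.1 normalized counts at 22 DAA and 6041, 7358, 6881 and 4699 at HD, with a wide gap between the groups (-2.84 ± 0.22, SE, edgeR, adjusted P = 3.7e-05, WT log2 fold change -1.69). Of 18 defence loci 1 rose, a hypersensitive response protein on 4BL with 5743, 6555, 5609 and 5962 normalized counts at 22 DAA and 1646, 1543, 1824 and 1656 at HD (1.83 ± 0.14, SE, edgeR, adjusted P = 3.85e-05). A pathogenesis-related protein on 5BL, the most abundant of them, had 33861, 13726, 9431 and 6181 normalized counts at 22 DAA and 6287, 4599, 6671 and 4830 at HD, and was not called (adjusted P = 0.0356). Replicate 1 at 22 DAA was the highest leaf there. The 7 pathogen response markers summed to 93782 in that leaf and to 27840 to 47078 in the other 22 DAA leaves, against 19485 to 24503 at HD. None was called, 5 were higher and 2 lower by edgeR at an unadjusted P under 0.05, and DESeq2 alone called 5 higher and 1 lower. None was at 0, which follows from picking markers among abundant loci. The 2 epidermal markers summed to 8943 to 19716 at 22 DAA and 27639 to 35574 at HD, with 1 of them lower, and the 3 markers of dividing cells to 12874 to 15563 at 22 DAA and 7242 to 12151 at HD, with none called, 1 higher by edgeR at an unadjusted P under 0.05 and none by DESeq2 alone. The part of these markers in the other results was not tested.

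Of 14 loci that bind, reduce or move metals 3 rose and 1 fell (median 0.36), and the 3 were metallothionein-like protein 1 loci, small cysteine-rich proteins that bind Zn and Cu. The locus on 4AL (contig7115854) had 82556, 52742, 37265 and 38393 normalized counts at 22 DAA and 11535, 11458, 9707 and 8819 at HD (2.33 ± 0.27, SE, edgeR, adjusted P = 0.000341, WT log2 fold change 1.82), with replicate 1 the highest leaf at 22 DAA. The loci on 4BS (1.90) and 1BS (2.30) rose too. The 4AL call was lost without replicate 2 at 22 DAA or any 1 of the HD replicates (adjusted P between 0.0008 and 0.0024), and without replicate 2 at 22 DAA 1 of the group rose. The ferric reductase oxidase *TaFRO1* on 2BL, of a family that reduces Fe for uptake, had 11107, 10835, 16177 and 8382 normalized counts at 22 DAA and 34305, 35715, 41464 and 25467 at HD, and fell by 1.56 ± 0.24 on the log2 scale (SE, edgeR, adjusted P = 0.00157, WT log2 fold change -1.83).

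For Fe and Zn transporters and phytosiderophore genes, 71 loci could be matched to the list in the study. Of these 9 rose, 9 fell and 53 were not called, the last with log2 fold changes between -2.86 and 3.65, and the median was -0.20, against 0.20 in WT. Over all loci tested 3.05% were higher and 3.44% lower at 22 DAA, and 9.07% of those between 100 and 1000 normalized counts were DE. Where a gene had 1 locus on the A and 1 on the B genome (28 genes), the homoeologs changed in the same direction in 23 cases, with a median difference of 0.27 in log2 fold change, and both were called in 3.

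The *NAAT* loci fell. Nicotianamine aminotransferase catalyses the step from nicotianamine towards deoxymugineic acid. *TaNAAT2* on 1BL had 17.7, 17.7, 9.4 and 15.8 normalized counts at 22 DAA and 167.8, 444.3, 276.6 and 294.2 at HD (-4.28 ± 0.32, SE, edgeR, adjusted P = 2.85e-05). *TaNAAT2* on 1AL had 32.2, 34.6, 31.6 and 39.4 normalized counts at 22 DAA and 128.0, 210.3, 138.3 and 200.7 at HD (-2.30 ± 0.20, SE, edgeR, adjusted P = 7.4e-05). *TaNAAT1* on 1AL had 8.8, 13.8, 10.2 and 4.4 normalized counts at 22 DAA and 32.01, 98.0, 91.8 and 66.2 at HD (-2.93 ± 0.40, SE, edgeR, adjusted P = 0.000837). In none of the 3 did the groups overlap. The log2 fold changes in WT were 1.68, 1.09 and 1.11 in the same order of loci, none of them called. In *gpc-A1* they were -2.23 (called), -1.26 and -0.78 (not called). The interaction with *gpc-A1* was called at none of these loci (edgeR, adjusted P = 0.946 at each). *TaDMAS*, the other gene of this step with a matched locus, was not called (0.01), nor were the 3 *NAS* loci, for the enzyme that makes nicotianamine, with a median of -0.21, no member at an unadjusted P under 0.05 by edgeR and none called by DESeq2 alone.

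Of 22 *ZIP* loci, which carry Zn and Fe into the cytoplasm, 2 rose, 2 fell and the median was -0.32, against 0.76 in WT and 0.20 in *gpc-A1*. *TaZIP3* on 2BL fell, with 8.8, 13.1, 22.2 and 19.3 normalized counts at 22 DAA and 77.3, 98.9, 98.5 and 94.6 at HD (-2.55 ± 0.26, SE, edgeR, adjusted P = 0.00018, WT log2 fold change 2.25). *TaZIP10* on 7BL fell as well, with 126.99, 140.6, 233.9 and 167.2 normalized counts at 22 DAA and 268.2, 298.7, 387.2 and 390.9 at HD (-1.02 ± 0.21, SE, edgeR, adjusted P = 0.00786, WT log2 fold change 0.86). In *gpc-A1* the log2 fold change of *TaZIP3* on 2BL was -3.19 and that of *TaZIP10* on 7BL was -0.10, neither called. The *ZIP* loci that rose were the homoeologs of *TaZIP10-like1*. The 7BL locus had 145.5, 192.1, 99.0 and 165.4 normalized counts at 22 DAA and 2.2, 43.8, 5.5 and 3.2 at HD (3.39 ± 0.63, SE, WT log2 fold change 7.01), and replicate 2 was the high leaf at HD. The 7AL locus had 66.7, 107.6, 46.1 and 91.9 normalized counts at 22 DAA and 3.3, 34.2, 13.3 and 16.8 at HD (2.17 ± 0.47, SE, WT log2 fold change 5.19), again with replicate 2 highest at HD.

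Among 15 *YSL* loci, for transporters of metals bound to nicotianamine or deoxymugineic acid, 3 rose and none fell, while 2 were lower by edgeR at an unadjusted P under 0.05 and 1 by DESeq2 alone (median 0.62). *TaYSL13* on 2AL had 131.0, 83.7, 78.6 and 78.8 normalized counts at 22 DAA and 9.9, 18.1, 18.8 and 14.7 at HD (2.57 ± 0.26, SE), while *TaYSL12* on 2BL (1.29 ± 0.16, SE, WT log2 fold change 0.04) and *TaYSL9* on 2AL (0.91 ± 0.14, SE) rose less. Both homoeologs of *TaHMA2*, a P-type ATPase that pumps Zn out of the cytoplasm in rice and Arabidopsis, rose. On 7AL it had 704.1, 739.9, 666.0 and 832.4 normalized counts at 22 DAA and 158.9, 125.6, 122.8 and 182.8 at HD (2.31 ± 0.17, SE, edgeR, adjusted P = 2.72e-05, WT log2 fold change 3.09), and on 7BL 724.98, 988.9, 812.8 and 1082.7 at 22 DAA and 193.2, 127.5, 149.4 and 217.5 at HD (2.39 ± 0.21, SE, WT log2 fold change 2.69). These are well separated groups with little spread inside each. *TaNRAMP2* on 4BL, of a family of divalent metal transporters, had 983.0, 846.7, 911.9 and 832.4 normalized counts at 22 DAA and 280.4, 226.4, 553.2 and 278.4 at HD (1.41 ± 0.25, SE). Of the *ZIFL* and *VIT* loci, which belong to families of vacuolar metal or chelator transporters, *TaZIFL2-like1* on 3B rose (1.32 ± 0.17, SE), and *TaZIFL1* on 3AS (-2.48 ± 0.35, SE, WT log2 fold change -4.32), *TaZIFL7* on 5AL (-1.75 ± 0.24, SE) and *TaVIT1* on 2AL (-1.09 ± 0.23, SE) fell.

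Of the 18 transporter and phytosiderophore calls, 10 held when any 1 library was left out: both *TaNAAT2* and both *TaHMA2* loci, *TaZIP3* on 2BL, *TaFRO1*, *TaZIFL2-like1* and the 3 *YSL* loci. When all 12 libraries of the double mutant entered the fit, *TaFRO1* on 2BL (edgeR, adjusted P = 0.015), *TaZIFL1* (0.0135) and *TaVIT1* (0.0115) lost their calls, and with all 36 libraries *TaNRAMP2* (0.0219) and *TaZIP10* on 7BL (0.0152) did. *TaVIT1* was lost without any library except replicate 4 at HD (adjusted P between 0.0165 and 0.0273), and with the replicate number as a block (adjusted P = 0.0103). *TaZIP10* on 7BL was lost without any library except replicate 3 at 22 DAA (0.011 to 0.0276), and *TaZIP10-like1* on 7AL (0.0109 to 0.0298) and 7BL (0.0059 to 0.0147) without replicates 1, 2 or 4 at 22 DAA or 1, 3 or 4 at HD. *TaNAAT1* was lost without any library except replicate 1 at HD (0.0015 to 0.0033), *TaZIFL1* without any except replicate 3 at HD (0.0004 to 0.0052), *TaNRAMP2* without replicates 1, 2 or 4 at HD (0.0107 to 0.0147), and *TaZIFL7* without replicates 3 or 4 at 22 DAA or 1 at HD (0.0027 to 0.0045). These are the adjusted P values of edgeR, so where they stay under 0.01 another of the 4 tests was not passed.

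**Figure D4:**
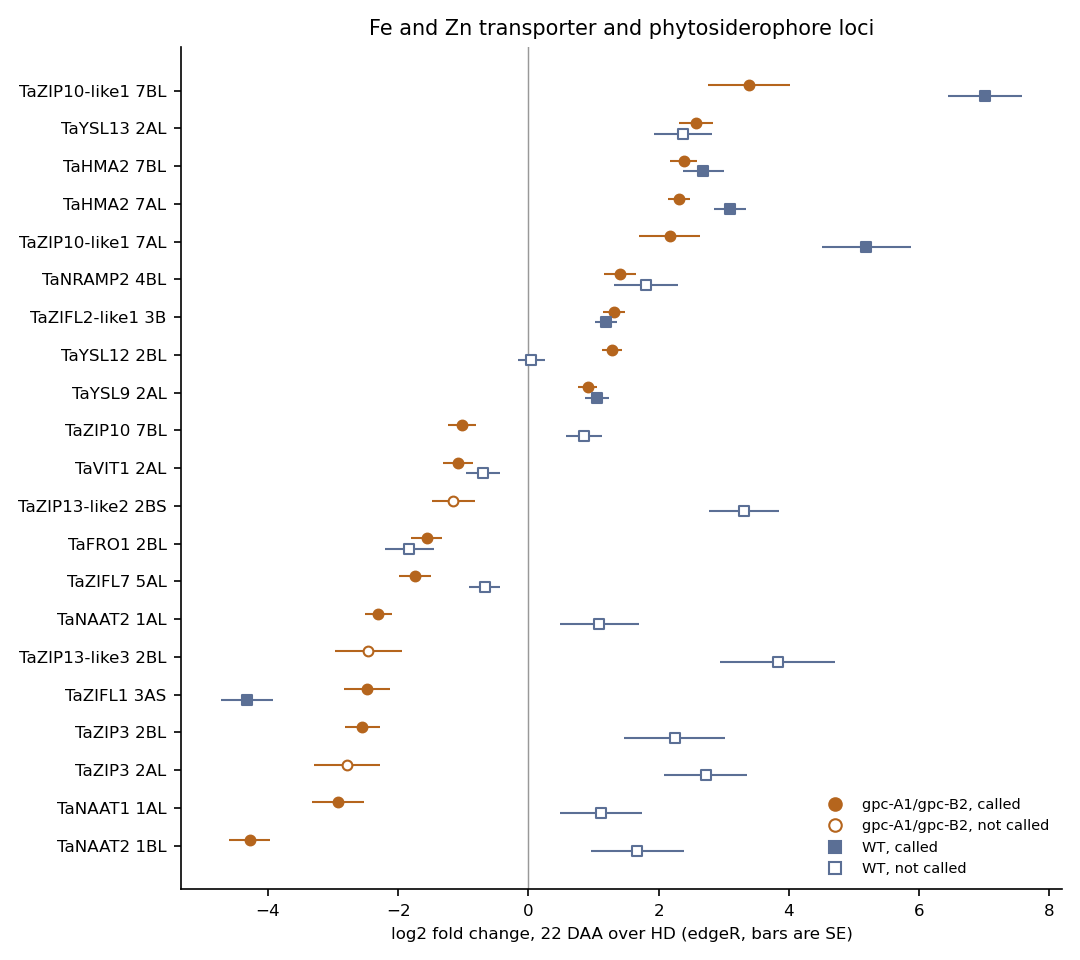
The log2 fold change between 22 DAA and HD (x axis, edgeR, bars are SE, 4 libraries per group and time) of the 18 transporter and phytosiderophore loci that were DE in *gpc-A1/gpc-B2* and of 3 more loci named for the difference from WT; circles are the double mutant, squares WT, and filled symbols are DE. The *NAAT* loci and *TaZIP3* lie below 0 in the double mutant and above 0, though not DE, in WT, while the *TaHMA2* loci lie above 2 in both genotypes.

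Loci outside these groups included the largest change of all described loci. The locus described as ribose-phosphate pyrophosphokinase-like on 2AL (contig6368208, 1 to 849), for an enzyme that makes the activated ribose of nucleotide synthesis, had 17405, 24651, 13345 and 16194 normalized counts at 22 DAA and 34.2, 61.8, 15.5 and 21.01 at HD (9.06 ± 0.47, SE, edgeR, adjusted P = 3.79e-06). At 12 DAA it had 852.8, 1873.2, 9088.5 and 2189.7, between the other times but with a wide spread. The same locus averaged 139 ± 152 at 22 DAA and 16 ± 5 at HD in WT (SD, n = 4 each, log2 fold change 3.13), and the log2 fold change was 6.49 in *gpc-A1*. The difference between the double mutant and WT, 5.91 ± 0.97 (SE), had an edgeR adjusted P of 0.0229 and was not called. A beta-glucosidase 16 on 2BL rose by 1.87 ± 0.24 (SE), and a Tic-type protein of the chloroplast on 5BL (-2.72) and membrane proteins on 2AL (-2.31) and 2BL (-2.19) fell. Among loci with no description, the locus of 4AL (contig7175259) had 64.3, 51.5, 45.3 and 39.4 normalized counts at 22 DAA and 3990, 4383, 2787 and 3381 at HD (-6.18 ± 0.23, SE, edgeR, adjusted P = 7.21e-07), and a locus of 4BL (contig6981209) changed by -6.10. A locus of 1AL (contig3905522) had 843.9, 958.1, 448.3 and 1034.5 normalized counts at 22 DAA and 4.4, 4.8, 6.6 and 5.3 at HD (7.25 ± 0.34, SE, edgeR, adjusted P = 3.02e-06). A locus of 2BL (contig7991968) rose further, with 372.1, 1338.5, 635.2 and 917.2 normalized counts at 22 DAA and 3.3, 1.0, 1.1 and 3.2 at HD (8.52 ± 0.55, SE), but was not called without replicates 3 or 4 at 22 DAA or any 1 of the HD replicates, while its edgeR adjusted P was at most 0.0002.

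The same contrast was DE at 2795 loci in WT (4.01% of 69741 tested) and at 1296 in *gpc-A1* (1.88% of 69083 tested). The biological coefficient of variation was 0.241 in the double mutant, 0.285 in WT and 0.336 in *gpc-A1*, and the counts of calls moved with single libraries: the WT count was 839 to 1750 without any 1 library other than replicate 4 at HD and 4043 without that one, and the *gpc-A1* count ranged from 80 without replicate 1 at HD to 4301 without replicate 3 at 22 DAA. In 1 label field the first *gpc-A1* replicate at HD is given as another genotype than in its title, which was used. The paper reports a check of each sample by read pileups, with the induced mutations seen in the mutants and in no WT sample. That check was not repeated here. Of the double mutant calls, 1407 were also called in WT (30.7% of the double mutant calls and 50.3% of the WT calls), and 844 in *gpc-A1* (18.4% and 65.1%). No locus was called in opposite directions. Of the double mutant calls tested in WT, 4499 of 4560 had a fold change of the same sign there, and the median log2 fold change in WT was 1.43 for those that rose and -1.11 for those that fell in the double mutant. The share with the same sign over all loci was not counted, so this agreement has no background beside it.

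The difference between genotypes was tested with the interaction of genotype and time. The change differed between the double mutant and WT at 17 of 72777 loci (0.0234%; edgeR, adjusted P of 0.01 or less), all with a more negative change in the double mutant (-8.36 to -2.40). At 13 of them the double mutant was lower and WT higher at 22 DAA, and 10 were DE in the double mutant. The direction was less uniform under other settings: 38 of 141 calls were positive with DESeq2, 3 of 68 with all 36 libraries in the fit and 4 of 47 without replicate 4 of WT at HD. None of the 17 is described or matched to a transporter. Unadjusted P values under 0.05 were found at 5.75% of loci. The count was 53 with the replicate number as a block, 16 of the 17 among them and none positive, and 47 without replicate 4 of WT at HD. It was 8, 6 and 2 without replicates 1 and 3 of the double mutant at 22 DAA and replicate 3 at HD, 27 without replicate 1 of WT at 22 DAA, and 1 without any 1 of 7 libraries (replicates 1, 2 and 3 of WT at HD, and replicates 2 and 4 of the double mutant at both times). The double mutant and *gpc-A1* differed at 1 locus (0.00138% of 72480 tested), with 4.60% of loci at an unadjusted P under 0.05.

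The locus with the smallest P in both interactions, on 4BL (contig6992123, 2050 to 7010), was singled out after its values were seen and has no description. It had 43.4, 75.3, 69.2 and 71.8 normalized counts at 22 DAA and 1240.7, 800.1, 813.2 and 637.8 at HD in the double mutant, far apart (-3.75 ± 0.25, SE, edgeR, adjusted P = 2.14e-05). In WT it averaged 51 ± 3 at 22 DAA and 85 ± 10 at HD (SD, n = 4 each, log2 fold change -0.73), so the genotypes were apart at HD and close at 22 DAA. The interaction was -3.04 ± 0.29 with WT (SE, edgeR, adjusted P = 0.000655) and -3.11 with *gpc-A1* (adjusted P = 0.000904), and both share the libraries of the double mutant. The adjusted P for *gpc-A1* was 0.0115 with the replicate number as a block.

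Among the described or matched loci the interaction with WT passed at none, and 8 had an adjusted P of 0.05 or less. With the replicate number as a block 8 passed, and without replicate 4 of WT at HD 7 did. *TaZIP13-like2* on 2BS had the smallest value (adjusted P = 0.0145, and 0.00271 with the block). It had 44.2, 67.6, 81.97 and 40.3 normalized counts at 22 DAA and 89.4, 171.2, 76.3 and 180.7 at HD in the double mutant (-1.15, not called), against 786.7 ± 376.7 at 22 DAA and 79 ± 62 at HD in WT (SD, n = 4 each), a difference of -4.48 in log2 fold change. *TaNAAT2* on 1BL differed by -5.98 (adjusted P = 0.0157, and 0.00321 with the block), with 602.3 ± 562.98 at 22 DAA and 188.1 ± 148.996 at HD in WT (SD, n = 4 each). *TaZIP3* on 2AL, with 2.4, 6.1, 14.5 and 12.3 normalized counts at 22 DAA and 27.6, 50.4, 108.4 and 55.7 at HD in the double mutant, differed by -5.52 (adjusted P = 0.0225, and 0.00293 with the block). *TaZIP13-like3* on 2BL differed by -6.31 (adjusted P = 0.0382, and 0.00273 with the block). With the block the adjusted P of *TaZIP10* was 0.00251 on 7AL and 0.00188 on 7BL, and that of *TaZIP7* 0.00352 on 1AS and 0.00331 on 1BS. The metallothioneins of type 3 (contig3303945) and 4a (contig3434981) on 3AS differed in the other direction, by 1.85 and 1.48 (adjusted P = 0.0167 and 0.0196). The type 3 locus had 4650, 3925, 2919 and 3873 normalized counts at 22 DAA and 2470, 2554, 2041 and 2231 at HD in the double mutant (0.72, adjusted P = 0.0124, not called), against a log2 fold change of -1.15 in WT. Over the 22 *ZIP* loci the interaction with WT was negative at 16 and had a median of -1.86, and 12 had an unadjusted P under 0.05. Over all loci 51.1% were negative, the median was -0.01 and 5.75% had an unadjusted P under 0.05. The *ZIP* loci had to reach 50 normalized counts in WT, which admits loci scarce in the double mutant but not the reverse. All loci passed no such filter, so the sets are not matched and the tally is not a test.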

How the data were processed

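RNA-seq libraries of single flag leaves were grouped by genotype and time as labelled. Per the paper's methods, the authors mapped single 50 bp reads with GSNAP to IWGSC contigs of the A and B genomes and used HTSeq to count, for each locus, the reads that mapped to 1 place. They deposited these raw counts without normalization. All columns of counts were read, and only those of the groups compared entered a fit.

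Counts were tested in R 4.3.3 with edgeR 4.0.16 (TMM factors, quasi-likelihood test) and DESeq2 1.42.0, and P-values of both were adjusted over all loci tested (Benjamini-Hochberg) and had to be 0.01 or less. A DE call also required a Mann-Whitney-Wilcoxon test (normal approximation, P of 0.05 or less) and the mean comparison of the methods with pooled variance (P of 0.01 or less), both on counts over median-of-ratios size factors of the 8 libraries. DESeq2 replaced the earlier DESeq. For edgeR the methods name no test, and the quasi-likelihood test was chosen here (its exact test gave 5915 calls). A locus without a DESeq2 adjusted P was not called. Interactions were fitted on the 16 libraries of the genotypes compared and called by edgeR alone. Log2 fold changes are those of edgeR, with 22 DAA over HD, and SE is the absolute change over the square root of F. Displayed normalized counts use size factors over all 36 libraries. *GPC-A2* and the NAM-B1 locus were also compared by an exact permutation test over 70 arrangements. All tests are two-sided. The tests were first tested on simulated data. Python 3.11.15 with matplotlib 3.10.9 drew the figures.

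Descriptions came from the study's list of the most abundant loci, which was held only in part. Functional groups and markers were assigned by words in these descriptions. Transporters were matched by arm and by mean WT normalized counts that differed by at most 1 count at the 3 times (for *TaZIFL8* on 4BS, at 2 times). Only genes that reached 50 in WT were matched, and *TaVIT1* on 2BL and *TaYSL2* on 6BL were less certain. Named were both NAC loci, the most abundant member of each group and its DE members with the largest change in each direction, every DE transporter, the 3 DE loci per direction with the largest change among described loci in no group, 2 per direction among loci with no description (higher group at a mean of 100 or over, lower group above 3 counts), and the 5 described or matched loci with the smallest P in each interaction. The members and lists were chosen with earlier results of these data known. Files carry locus positions on contigs but no exons, so none are given.

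The samples of a replicate number were multiplexed and sequenced together, per the methods, so the numbers pair samples of different groups by sequencing. The deviations of samples from their group means correlated by 0.162 on average between 22 DAA and HD samples of the double mutant that share a number, with 2 of the 4 pairs above 0.1, and by -0.065 between those that do not. Alternatives were other tools, scalings, filters and sample sets, the replicate number as a block, and leaving out each library. P-values measure the spread between these leaves only.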

Additional observations from a re-analysis of the deposited data

Results flagged for a closer look

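Among 168 groups of 4 libraries of the double mutant examined for a library far from the others, 7 were found, where chance alone marks about 5% of groups. At 22 DAA, cysteine synthase on 5BS was high in replicate 1 (32186.3 normalized counts, against 13297 to 15618 in the others), catalase isozyme 2 on 6AS was low in replicate 4 (55571.5, against 82118 to 84101), and *TaYSL13* on 2AL was high in replicate 1 (131.0, against 78.6 to 83.7). At HD, *TaVIT1* on 2AL was low in replicate 4 (33.6, against 61.8 to 66.4), *TaNRAMP2* on 4BL was high in replicate 3 (553.2, against 226.4 to 280.4), *TaZIP10-like1* on 7BL was high in replicate 2 (43.8, against 2.2 to 5.5) and beta-glucosidase 16 on 2BL was high in replicate 3 (3484, against 1651 to 1907).

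The change between 22 DAA and HD differed between genotypes, by edgeR's interaction test, at 17 loci for the double mutant and WT and at 1 locus for the double mutant and *gpc-A1*. The locus of 4BL on contig6992123 was in both, with differences in log2 fold change of -3.04 from WT and -3.11 from *gpc-A1*.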

How the results depend on the processing

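The count of DE loci in the double mutant was 9545 with DESeq2 alone, 2213 to 4438 when 1 library was left out, and between 4238 and 5951 under the other alternatives, including 4543 with the replicate number as a block (4126 shared with the 4577). The share of DE loci that were higher at 22 DAA was 47%, and 37.6% without HD replicate 3 and 55.6% without 22 DAA replicate 1. For the double mutant against WT, the interaction was called at 141 loci with DESeq2, 68 with all 36 libraries in the fit, 53 with the block and 1 to 47 with a library left out. Against *gpc-A1* it was called at 4, 3 and 0 loci under the first 3 of these settings and at 1 without any single library. Leaving out 1 library gave 839 to 4043 DE loci in WT and 80 to 4301 in *gpc-A1*, alternatives added after seeing the data, as were those of the exact test. The exact p of the NAM-B1 locus was 0.0286 to 0.0571 with a library left out, and that of *GPC-A2* stayed at 0.0286. The named or matched loci and 19 alternatives gave 2223 pairs of a locus and an alternative. In 2081 pairs the locus stayed called or stayed not called, so this number also counts loci that were never called. A call was lost in 97 pairs and gained in 45, and none changed sign. The lost calls can only come from the 53 DE loci among the named or matched loci. Of these 53 loci 33 kept the call in every alternative, and 45 in the 11 alternatives that keep all 8 libraries. Apart from those printed beside the results, the block ended no call of a named locus. Where it is not shown by fewer samples, the cause was not tested. Differences at loci under about 10 normalized counts are limited by depth.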
